A study of Arabidopsis thaliana with 4 samples.

Results

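The genes described here encode proteins of the cytosolic small ribosomal subunit, the 40S subunit, in Arabidopsis thaliana. They were taken from a list of 60 nuclear loci covering 24 proteins from RPSa to RPS23, with paralogues kept apart, and each was found among the 27416 protein-coding loci of the deposited tables. For 11 of the proteins 2 genes were listed, for another 11 proteins 3 genes, for 1 protein 4 genes and for RPS15 1 gene. They were chosen by protein family, but with their ddcc against wild-type fold changes in the same 4 libraries already known, so the values below describe these genes and are no test of them as a group. RNA was sequenced from post-mature green seeds, a late stage of seed development, taken whole from the wild type (ecotype Columbia, Col 0) and from ddcc in the same ecotype, with 2 biological replicates of each. In ddcc the genes DRM1, DRM2, CMT2 and CMT3 are mutated, and these encode the enzymes that place most DNA methylation at non-CG cytosines. The labels do not name the mutant alleles, treatments, plant ages or the number of plants behind a library, and both genotypes were grown in a greenhouse. A whole seed mixes embryo, endosperm and seed coat.

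The 40S subunit binds the messenger RNA and the initiator transfer RNA and reads the codons. Its 18S ribosomal RNA and proteins form a head, which carries the beak, and a body with a platform, and the messenger RNA runs in the groove between them. In plants nearly every ribosomal protein is encoded by several genes, and mutants in single paralogues such as RPS18 (POINTED FIRST LEAF, PFL) or RPS13A have altered leaves and slower growth. RPS6 is the phosphorylation target of S6 kinase, which acts downstream of the TOR kinase, the sensor that couples nutrients to protein synthesis. In maturing seeds ribosomes make storage proteins, and messenger RNA is stored for translation at germination.

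Depth, as reads inferred from the deposited values, was 1122934 and 1166635 for the mutant and 3416071 and 1292023 for the wild type, replicate 1 first here and in every pair of values below. DRM2 read 4.85 and 8.33 in the ddcc libraries, against 39.3 and 39.6 in those of the wild type, as deposited normalised read counts, and was called lower (limma adjusted p = 0.00347), while DRM1 had no read, CMT2 was too low to test and CMT3, with 10 reads in all, was tested and not called. The source name of wild-type replicate 2 says ddcc, against its title, description and genotype; its DRM2 level was that of the other wild-type library, and it was kept as wild type. Both wild-type tables carry replicate 2 in their headers, but their values differ. The summed normalised read count of 10 seed storage and oil body markers was 89908 and 103710 in ddcc against 130140 and 115370 in wild type. None was called, 8 of the 10 were lower in both ddcc libraries than in both wild-type libraries, as were 25.3% of all genes tested, and their share of the reads overlapped, at 6.78% and 7.35% against 7.17% and 6.77%. The 6 endosperm markers summed to 23733 and 32277 against 13995 and 15757, nearly all from EPR1, which was not called. Of the others MAN7 was called higher, AGL62 and FIS2 had log2 fold changes of -0.23 and -1.39 without a call, and PHE1 and ZOU had no read. The 6 seed coat markers summed to 117 and 110.0 against 113 and 43.2 (none called, BAN without a read). The 9 silique wall and leaf markers summed to 84.7 and 77.7 against 22.6 and 17.3, with RBCS1A called higher at 69.7 and 71.3 in ddcc against 4.74 and 11.4 in wild type and SHP2, IND and FUL without a read. RBCS1A made up most of the ddcc sums. Only 2 markers of this list were tested, and the other had a log2 fold change of -0.14 without a call. Genes of the organelle genomes took 4.01% and 4.08% of the ddcc reads against 2.08% and 1.89% of the wild-type reads. In ddcc, EPR1, MAN7, RBCS1A and the organelle share were thus higher in both libraries, as were the 40S transcripts below, and most storage markers were lower as deposited. The other tested endosperm and leaf markers had negative log2 fold changes without a call. The part of these differences in the 40S values was not tested.

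Transcripts of the 40S proteins stood higher in ddcc. Together the 60 genes took 0.665% and 0.524% of the ddcc reads against 0.237% and 0.281% of the wild-type reads, with 95% Wilson intervals of 0.650 to 0.680, 0.511 to 0.537, 0.232 to 0.242 and 0.272 to 0.290, which cover counting error only. Their summed normalised read counts were 8803 and 7398 against 4292 and 4783. By either measure both ddcc libraries lay above both wild-type libraries, and ddcc replicate 1 was the highest. The normalised read counts of all genes summed to 1325381 and 1410907 in ddcc against 1815256 and 1705082 in wild type. Shares of reads and deposited values therefore give genotype differences of unlike size. In a bulk sample, fewer cells of a type and less RNA per cell cannot be told apart.

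Of the 60 genes, 58 passed the filter on low values, a mean of at least 1 unit of 1.56 normalised reads. In limma with a Benjamini-Hochberg adjusted p under 0.05, fitted on all genes, 22 of the 58 (37.9%) were called higher in ddcc and none lower. Over all 15780 genes tested, 6.48% were called, 3.03% higher and 3.45% lower. Because the genes were listed with this contrast known, nothing is read from the difference between these shares. The split of all calls depended on scaling, with 46.7% of them higher as deposited, 57.2% after quantile normalisation and 87.4% when the nuclear genes had the same total in each library. That last scaling moved the median log2 fold change of all genes to 0.38, called 41 of the 58 and left their median 0.84 above that of all genes. At an unadjusted p under 0.05, 38 of the 58 were higher and 0 lower. The log2 fold change, on the scale of log2(value + 1 unit), was positive in 56 genes and negative in 2, with a median of 0.83 and quartiles of 0.53 and 1.24. For all genes tested the median was 0.02 and the quartiles were -0.39 and 0.44. In 48 of the 58 genes both ddcc libraries exceeded both wild-type libraries, in none did both lie below, and in 10 the genotypes overlapped. The same separation was seen in 25.7% of all genes tested upward and in 25.3% downward. A fold change of at least 2 was fitted for 22 genes and of at least 4 for 4 genes, namely AT4G25740 (RPS10), AT1G15930 (RPS12), RPS6 (AT4G31700) and AT5G16130 (RPS7).

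The libraries of a genotype were not alike. The highest of the 4 values fell in ddcc replicate 1 for 42 of the 58 genes, in ddcc replicate 2 for 13 and in wild-type replicate 2 for 3. The lowest fell in wild-type replicate 1 for 29, in wild-type replicate 2 for 25 and in ddcc replicate 2 for 4. Without wild-type replicate 1 limma called 9 of the genes higher and without wild-type replicate 2 it called 11, with 7 of them (RPS15, AT1G15930 of RPS12, AT3G11510 of RPS14, AT4G31700 of RPS6, AT5G15200 of RPS9, AT5G16130 of RPS7 and AT5G58420 of RPS4) in both counts. Without ddcc replicate 1 or ddcc replicate 2 it called none of these genes and none of all 15780, while 23 and 27 of the 58 were higher at an unadjusted p under 0.05. With 1 ddcc library left, that library is assumed to vary like the wild-type pair. Limma without a variance trend also called none of the 58, with 30 higher at an unadjusted p under 0.05.

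**Figure D1:**
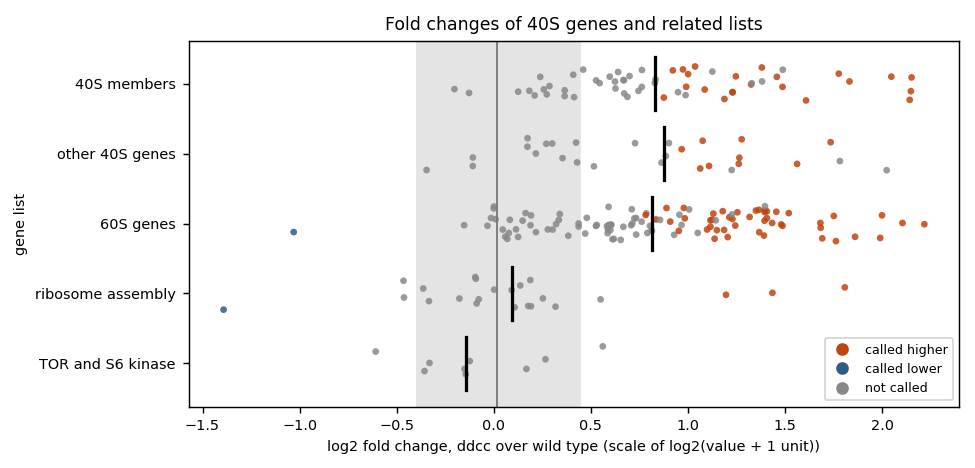
Log2 fold changes of ddcc over wild type for the 40S genes, for other genes of the 40S and 60S subunits and for ribosome assembly and TOR pathway genes. Each point is a tested gene (vertical scatter is for display), the black bar is the median of its list, the grey band spans the quartiles of all 15780 genes tested (-0.39 to 0.44) and the grey line marks their median. The 40S points centre on 0.83 with 2 below 0, and those 2 lie above 0 when libraries are scaled to equal nuclear totals.

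Promoters of plant ribosomal protein genes are known for 2 short motifs, the site II element, which TCP-type transcription factors bind, and the telo-box, named for its likeness to plant telomere repeats. In the 250 bases before the annotated gene start, 38 of the 60 genes (63.3%) held a site II element, spelled TGGGCC or TGGGCT on either strand, against 19.2% of 27443 nuclear protein-coding genes. At least 2 matches were found in 45% of the 60 and in 12% of all genes, with both matches counted where they overlap in a palindrome. The telo-box, AAACCCTA on either strand, was found in 11 of the 60 (18.3%) against 4.49% of all genes, and both motifs in 13.3% against 1.36%. Site II elements were as frequent in the promoters of other 40S genes (70.6%) and of 60S genes (70.2%), so they are not particular to the listed genes. A match is a string of letters and not a shown binding site. Of the 60 windows, 30 hold part of another locus, and those shown here hold none. They belong to both RPS9 and both RPS6 genes, which differed in response within a pair, and to the RPS7 gene with the largest change of its family. The windows are in build TAIR10.1, read 5′ to 3′ toward the gene, in lower case with motif letters in capitals. On minus-strand genes the coordinates run against the reading direction. The sequence comes from the RefSeq genome.
AT5G15200 of RPS9, chr5:4936430-4936679, minus strand: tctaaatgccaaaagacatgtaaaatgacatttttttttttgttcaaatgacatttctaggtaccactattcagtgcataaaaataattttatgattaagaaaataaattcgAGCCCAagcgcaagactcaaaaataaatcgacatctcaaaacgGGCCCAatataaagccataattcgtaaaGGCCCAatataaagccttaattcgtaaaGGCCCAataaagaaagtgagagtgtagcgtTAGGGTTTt
AT5G39850 of RPS9, chr5:15949660-15949909, plus strand: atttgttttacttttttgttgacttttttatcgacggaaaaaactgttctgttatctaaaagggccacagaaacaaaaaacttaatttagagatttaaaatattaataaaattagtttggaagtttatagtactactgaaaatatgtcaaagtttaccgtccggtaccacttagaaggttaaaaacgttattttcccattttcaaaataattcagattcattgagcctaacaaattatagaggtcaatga
AT4G31700 of RPS6, chr4:15347805-15348054, minus strand: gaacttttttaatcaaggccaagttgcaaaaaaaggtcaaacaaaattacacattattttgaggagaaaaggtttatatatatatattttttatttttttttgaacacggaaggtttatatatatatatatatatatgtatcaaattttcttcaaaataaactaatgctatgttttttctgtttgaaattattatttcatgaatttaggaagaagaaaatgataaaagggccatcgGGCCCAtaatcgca
AT5G10360 of RPS6, chr5:3260255-3260504, minus strand: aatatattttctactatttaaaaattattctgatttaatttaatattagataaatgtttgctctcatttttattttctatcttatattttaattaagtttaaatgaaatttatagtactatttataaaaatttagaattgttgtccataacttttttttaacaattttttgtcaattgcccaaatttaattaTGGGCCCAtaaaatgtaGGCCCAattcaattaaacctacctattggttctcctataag
AT5G16130 of RPS7, chr5:5268171-5268420, plus strand: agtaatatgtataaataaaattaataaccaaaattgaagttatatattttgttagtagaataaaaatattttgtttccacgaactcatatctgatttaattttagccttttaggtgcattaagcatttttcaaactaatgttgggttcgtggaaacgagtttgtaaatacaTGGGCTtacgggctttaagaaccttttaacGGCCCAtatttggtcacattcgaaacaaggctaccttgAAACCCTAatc

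The RPS9 gene AT5G15200 held 4 site II elements, starting 138, 95, 67 and 39 bases before the gene start, and a telo-box starting 9 bases before it, while AT5G39850 held neither motif. Between the RPS6 genes, AT4G31700 held 1 site II element 14 bases upstream and AT5G10360 held 3, at 58, 56 and 41 bases, the first pair overlapping. In AT5G16130 site II elements stood at 79 and 49 bases and a telo-box at 11. The gene with more matches had the larger fold change in the RPS9 pair and the smaller one in the RPS6 pair. Over the 58 tested genes, 18 of 37 with a site II element and 4 of 21 without were called higher, with median log2 fold changes of 0.99 and 0.67. With a telo-box 6 of 9 were called and without it 16 of 49, with medians of 1.19 and 0.76. Over all genes tested, 3.03% were called higher. The splits by motif were made after the fold changes were known and were not tested.

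**Figure D2:**
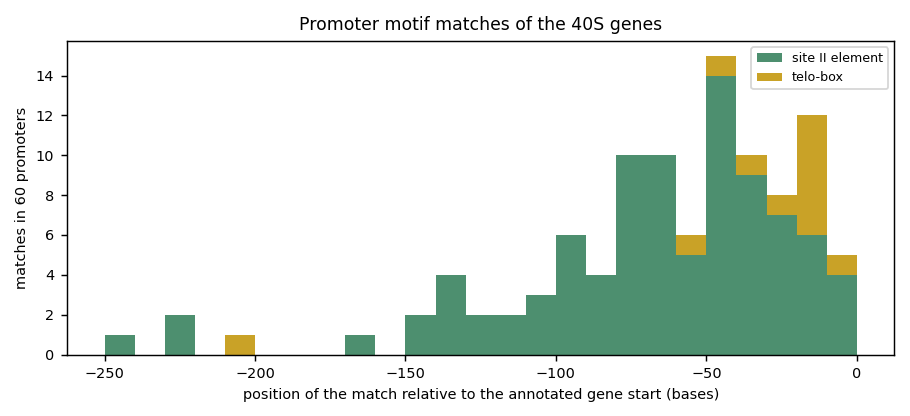
Positions of site II and telo-box matches in the promoters of the 60 genes, as the number of matches in bins of 10 bases against the distance in bases from the annotated gene start at 0. Of 92 site II matches 75 started within 100 bases of the gene start (median 61 bases), and of 12 telo-box matches 11 did (median 16.5 bases).

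Proteins of the body and platform had 17 called genes among 32 tested, in 12 of 14 families, and a median log2 fold change of 0.98. Over all genes tested, 3.03% were called higher. This grouping by region was made after the values were seen and was not tested. RPS6, the S6 kinase target on the solvent side of the body, had both genes called. The normalised read count of AT4G31700 (chr4:15345979-15347804) was 192 and 157 in the ddcc libraries, against 39.4 and 37.1 in those of the wild type. Its log2 fold change was 2.14 (SE 0.25), and both ddcc libraries stood at more than 3 times either wild-type library. EMB3010 (AT5G10360), the other RPS6 gene, had 217 and 179 in the ddcc libraries, against 71.5 and 94.5 in those of the wild type, with a log2 fold change of 1.25 (SE 0.24).

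RPS7, a protein of the body, showed the widest spread within a family. AT5G16130 (chr5:5268421-5270199) had 116 and 108 in ddcc against 27.8 and 23.9 in wild type, a log2 fold change of 2.05 (SE 0.27). Its paralogues did not separate the genotypes. AT1G48830 read 119 and 87.4 in ddcc against 93.3 and 148 in wild type, where wild-type replicate 2 was the highest library. Its log2 fold change of -0.20 became 0.19 with equal nuclear totals, 0.02 without ddcc replicate 2 and 0.13 without wild-type replicate 2. Without ddcc replicate 1 or wild-type replicate 1 it stayed negative and grew in size. AT3G02560 stood at 70.7 and 60.6 in ddcc against 65.4 and 50.6 in wild type, within each other's range.

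RPS9, which lies at the messenger RNA entry side of the body, also divided by paralogue. AT5G15200 (chr5:4934810-4936429) had 301 and 242 in the ddcc libraries, against 97.7 and 78.3 in those of the wild type, so that the lowest ddcc library was more than 2 times the highest wild-type library (log2 fold change 1.61 (SE 0.24)). AT5G39850 (chr5:15949910-15951475) had 252 and 199.9 in the ddcc libraries, against 194 and 186 in those of the wild type. Here ddcc replicate 2 was barely above the wild type, and the log2 fold change was 0.24 (SE 0.22), not called.

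RPS4 is also a body protein, and its 3 genes were all higher in both ddcc libraries. AT5G58420 had 111 and 106 in ddcc against 23.7 and 36.4 in wild type (log2 fold change 1.83 (SE 0.28)) and AT5G07090 104 and 96.8 in ddcc against 33.4 and 45.7 in wild type (1.33 (SE 0.27)), and both were called. The most abundant copy, AT2G17360, had 249.9 and 194 in ddcc against 114 and 167 in wild type and was not called, with ddcc replicate 2 and wild-type replicate 2 the nearest libraries.

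RPS14, a platform protein, had called genes in AT3G11510, with 96.7 and 90.8 in ddcc against 33.7 and 20.4 in wild type (log2 fold change 1.78 (SE 0.30)), and in AT2G36160, with 81.2 and 62.0 in ddcc against 31.4 and 29.1 in wild type. AT3G52580 followed in the same direction without a call, at 49.7 and 56.7 in ddcc against 29.2 and 39.2 in wild type. For RPS3a, which also sits on the platform, both genes were called. AT3G04840 had 164 and 126 in ddcc against 68.5 and 53.2 in wild type and AT4G34670 355 and 322 in ddcc against 164 and 192 in wild type, with log2 fold changes of 1.23 (SE 0.26) and 0.92 (SE 0.22).

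RPS15a, a body protein, had 3 genes of like level. RPS15A (AT1G07770) rose from 136 and 126 in wild type to 368 and 258 in ddcc, and AT5G59850 from 85.1 and 52.3 in wild type to 146 and 125 in ddcc. Both were called. RPS15AD (AT3G46040) did not separate the genotypes, at 173 and 119 in ddcc against 127 and 136 in wild type, where ddcc replicate 2 was the lowest library.

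In RPS2, RPSa and RPS13 a single gene was called. AT2G41840, the main gene of RPS2, which lines the messenger RNA entry, had 258 and 259 in ddcc against 116 and 145 in wild type, and its 2 ddcc libraries lay close together and well above the wild type. P40 (AT1G72370), an RPSa gene whose human relative is known as the laminin receptor precursor, had 163 and 159.7 in ddcc against 77.3 and 85.6 in wild type, and the RPS13 gene RPS13A, known for the pointed leaves of its mutant, 113 and 117 in ddcc against 58.2 and 49.1 in wild type. Their log2 fold changes of 0.97 and 1.09 were among the smaller ones called.

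Uncalled genes of the body and platform mostly lay in the same direction. The other RPS13 gene, AT3G60770, had 44.8 and 41.2 in ddcc against 17.3 and 53.8 in wild type, and its spread came from the wild type, whose replicates differed by about 3 times. RPS23, which reaches the decoding site, was represented by AT5G02960 at 538 and 416 in ddcc against 387 and 278 in wild type, not called although both ddcc libraries were higher. AT5G27700 of RPS21, a small protein beside RPSa, overlapped between genotypes at 65.3 and 93.9 in ddcc against 55.6 and 73.4 in wild type. The further genes AT1G58380 and AT3G57490 of RPS2 and AT3G53890 of RPS21, had log2 fold changes of 0.27, 1.49 and 0.70 without a call.

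**Figure D3:**
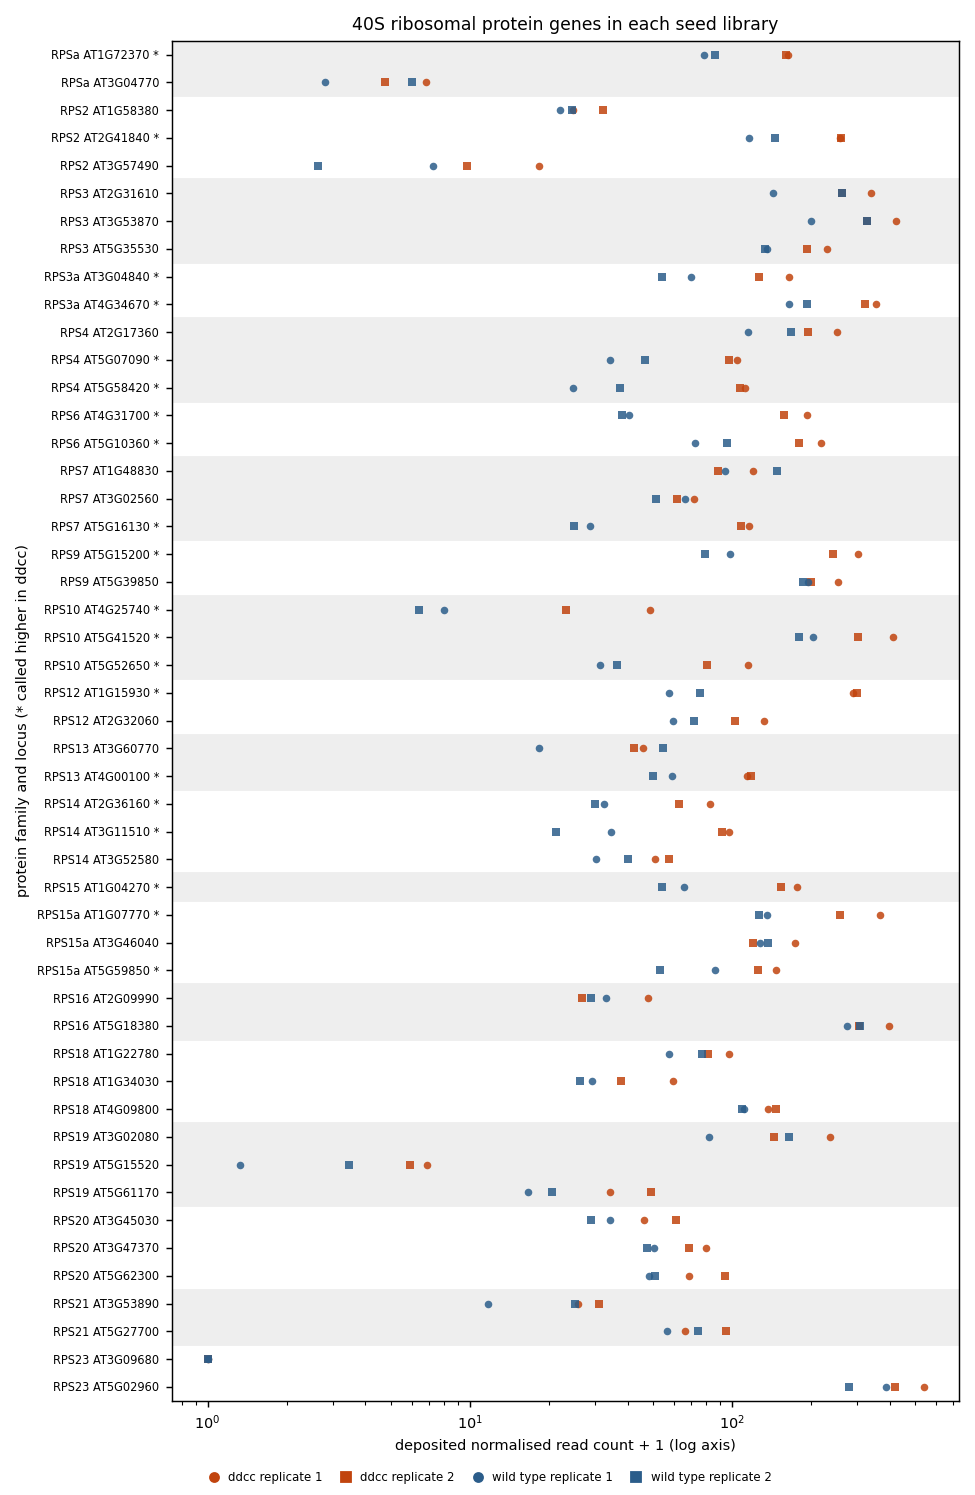
Deposited normalised read count plus 1, on a log axis, of 49 of the genes in the 4 libraries, with ddcc in orange and wild type in blue, circles for replicate 1 and squares for replicate 2. Grey and white bands separate families and an asterisk marks the 20 of them that were called, in which both orange marks lie right of both blue marks.

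Proteins of the head had 5 called genes among 26 tested, in 3 of 10 families, and a median log2 fold change of 0.75. Over all genes tested, 3.03% were called higher. The split into head and body was made after the values were seen and was not tested. RPS10 sits at the head near the beak and had all 3 genes called. AT4G25740 (chr4:13107136-13108827) had 47.9 and 22.3 in the ddcc libraries, against 7.01 and 5.42 in those of the wild type. It had the largest log2 fold change of the tested 40S genes, 2.15 (SE 0.44), from 59 and 17 reads in ddcc and wild type, with ddcc replicate 1 at about 2 times ddcc replicate 2. AT5G52650 rose from 30.5 and 35.4 in wild type to 114 and 79.0 in ddcc, and RPS10B (AT5G41520), the most abundant copy, from 203 and 179.7 in wild type to 409 and 303 in ddcc.

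RPS12, a protein of the beak, had 1 called gene, AT1G15930 (chr1:5471316-5473048), with 289 and 299 in the ddcc libraries, against 56.7 and 74.7 in those of the wild type. Both ddcc libraries were more than 3 times either wild-type library, and the log2 fold change was 2.15 (SE 0.24). Its paralogue AT2G32060 had 132 and 102 in ddcc against 58.5 and 70.9 in wild type and was not called, although both ddcc libraries were higher. RPS15, which faces the large subunit from the head, had 176 and 153 in ddcc against 64.7 and 53.1 in wild type for its 1 listed gene (AT1G04270), a log2 fold change of 1.46 (SE 0.24) with no overlap.

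The families RPS3, RPS16, RPS18, RPS19 and RPS20 had no called gene. RPS3 guards the messenger RNA entry, and its leading gene AT3G53870 had 422 and 328 in ddcc against 199 and 326 in wild type. In this gene and in AT2G31610, at 339.6 and 263 in ddcc against 142 and 263 in wild type, wild-type replicate 2 reached the level of ddcc replicate 2 while wild-type replicate 1 lay far below. The third gene, AT5G35530, was separated at 229 and 193 in ddcc against 135 and 133 in wild type.

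RPS18 lies at the top of the head. Its genes PFL, AT1G34030 and RPS18C read 96.6 and 80.0 in ddcc against 56.6 and 76.0 in wild type, 58.6 and 36.7 in ddcc against 28.3 and 25.2 in wild type and 136 and 146 in ddcc against 110.0 and 108 in wild type. None was called, and all were separated by genotype, PFL by a narrow gap.

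RPS16, whose tail reaches the peptidyl transfer RNA, was among the families that moved least. AT5G18380 had 395 and 305 in ddcc against 274 and 307 in wild type and AT2G09990 46.8 and 25.9 in ddcc against 32.1 and 27.9 in wild type, both with ddcc replicate 1 highest and ddcc replicate 2 at or below a wild-type library.

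For RPS19, whose human counterpart is mutated in Diamond-Blackfan anaemia, the leading gene AT3G02080 had 237 and 143 in ddcc against 81.0 and 163 in wild type, with wild-type replicate 2 above ddcc replicate 2. AT5G61170 was separated at 33.3 and 48.1 in ddcc against 15.6 and 19.6 in wild type. The 3 genes of RPS20 (AT3G45030, AT3G47370 and AT5G62300) were separated and uncalled, with log2 fold changes of 0.75, 0.60 and 0.69. The leading RPS20 gene AT5G62300 had 67.6 and 92.8 in ddcc against 47.1 and 50.1 in wild type, with ddcc replicate 2 the highest.

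Paralogues differed in fold change, and their shares of a family describe this. Shares were taken of the family's summed level per kilobase of exon, and in 17 of 23 families with several genes the same gene led in all 4 libraries. Of 59 paralogues, 14 had a higher share in both ddcc libraries than in both wild-type libraries, 11 a lower one and 34 overlapped. These counts are 23.7% and 18.6% of the paralogues, and the levels of 25.7% and 25.3% of all genes separated upward and downward. Shares and levels are unlike measures, since a higher share of 1 gene lowers those of its paralogues. Nothing is read from these counts. In 2 families the leader of both wild-type libraries differed from that of both ddcc libraries. In RPS7, AT1G48830 held 51.6% and 67.8% in wild type but 38.7% and 33.8% in ddcc, and AT5G16130 16.8% and 12.0% in wild type but 41.2% and 45.6% in ddcc, so that AT5G16130 led in ddcc. In ddcc replicate 1 its lead was narrow, from 98 reads against 101 for AT1G48830, and rested on exon lengths of 989 and 1083 bases. In RPS15a, RPS15AD held 45.5% and 54.2% in wild type but 34.4% and 32.0% in ddcc and RPS15A 24.5% and 25.3% in wild type but 36.9% and 35.0% in ddcc, also a close pair in the mutant. This order depends on exon lengths of 1653 bases for RPS15A and 835 for RPS15AD. Without division by length, RPS15A would lead in wild-type replicate 1 and RPS15AD in wild-type replicate 2. RPS15A also has a copy in AT1G07780.

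The RPS9 gene AT5G15200 had a share of 27.9% and 24.4% in wild type but 47.7% and 48.2% in ddcc, near parity with AT5G39850 in the mutant. For RPS6, AT4G31700 went from the minor gene to near parity, with 35.8% and 28.4% in wild type but 47.2% and 47.0% in ddcc. In RPS12 the gene that already led widened its lead, since AT1G15930 held 50.3% and 52.4% in wild type but 69.6% and 75.4% in ddcc. The RPS4 gene AT5G58420 had 15.1% and 15.9% in wild type but 26.0% and 29.2% in ddcc, and AT3G11510 of RPS14 had 36.3% and 23.4% in wild type but 43.0% and 43.9% in ddcc. In RPS13 the share of RPS13A overlapped between genotypes, at 76.0% and 46.2% in wild type but 70.4% and 72.8% in ddcc, with wild-type replicate 2 apart from the other libraries. Coding sequences of paralogues were 74.1% to 98.4% identical over 50 pairs (median 85.1%), and reads shared by such copies could be counted for either. Shares were not tested.

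**Figure D4:**
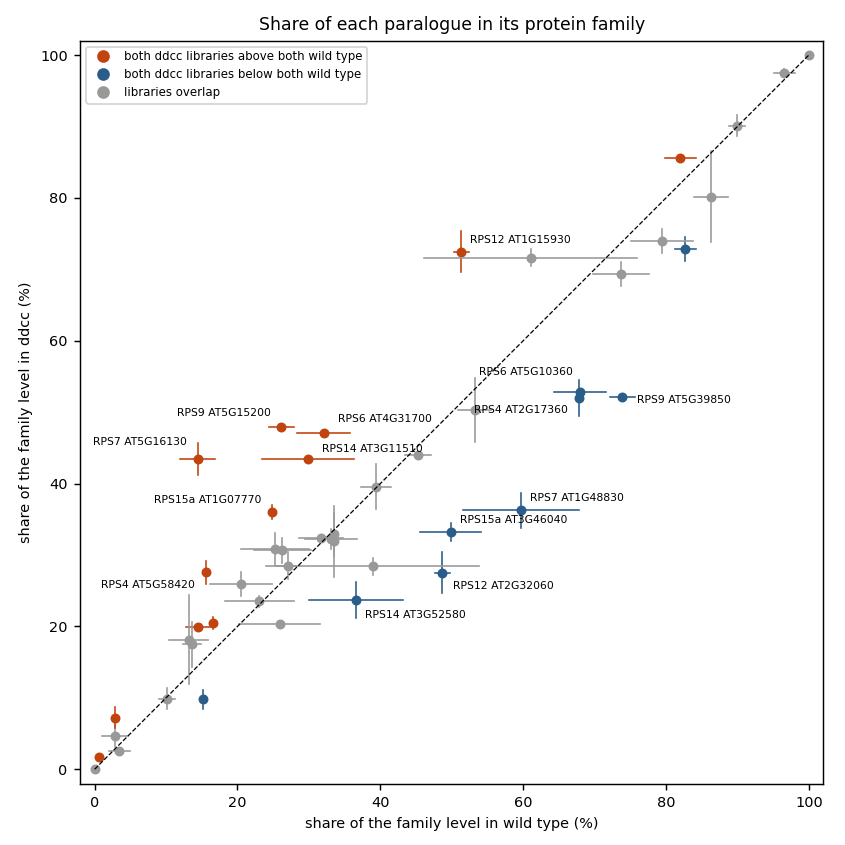
Share of each paralogue in its family's summed level per kilobase, in percent, in ddcc against wild type for 48 paralogues of families with several listed genes. A point is the mean of 2 libraries, its lines join the 2 library values, the dashed line marks equal shares, and orange and blue points are those whose libraries do not overlap. The labelled points differ by at least 10 percentage points, with AT5G16130 of RPS7 farthest above the line and AT1G48830 of RPS7 farthest below it.

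Levels of different genes were compared as the mean normalised read count per kilobase of exon over the 4 libraries. The 40S genes were among the abundant transcripts of these seeds, with 41 of 60 in the top 10% of 26719 genes with an exon length and 2 below the middle of that ranking. AT5G02960 of RPS23 was the highest at 540.5 per kilobase, followed by AT5G18380 of RPS16 at 293 and AT3G53870 of RPS3 at 287. The last 2 did not differ from each other beyond their spread over the libraries.

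Although a subunit holds 1 copy of each protein, the summed level of a family's listed genes ranged 7.91-fold over the 24 families, from 81.3 to 643 per kilobase. Genes outside the list also encode some of these proteins, so a sum is not the whole output of a protein. In 22 of the 24 families the sum was higher in both ddcc libraries than in both wild-type libraries, with RPS16 and RPS21 overlapping. Of all genes tested, taken singly, 25.7% separated upward in this way. Because the genes were listed with this contrast known, nothing is read from the family count. The ratio of the means ran from 1.21 in RPS16 to 3.18 in RPS12, with a median of 1.77. RPS12 had 368 and 351 in ddcc against 99.9 and 126 in wild type per kilobase. RPS6 followed with 345 and 284 in ddcc against 93.4 and 111 in wild type, a ratio of 3.08, and RPS15 with 190.4 and 165 in ddcc against 70.1 and 57.5 in wild type, a ratio of 2.79. RPS16, at 408 and 305 in ddcc against 283 and 309 in wild type, and RPS21, at 134 and 184 in ddcc against 98.7 and 145 in wild type, had 1 wild-type library at or above a ddcc library.

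**Figure D5:**
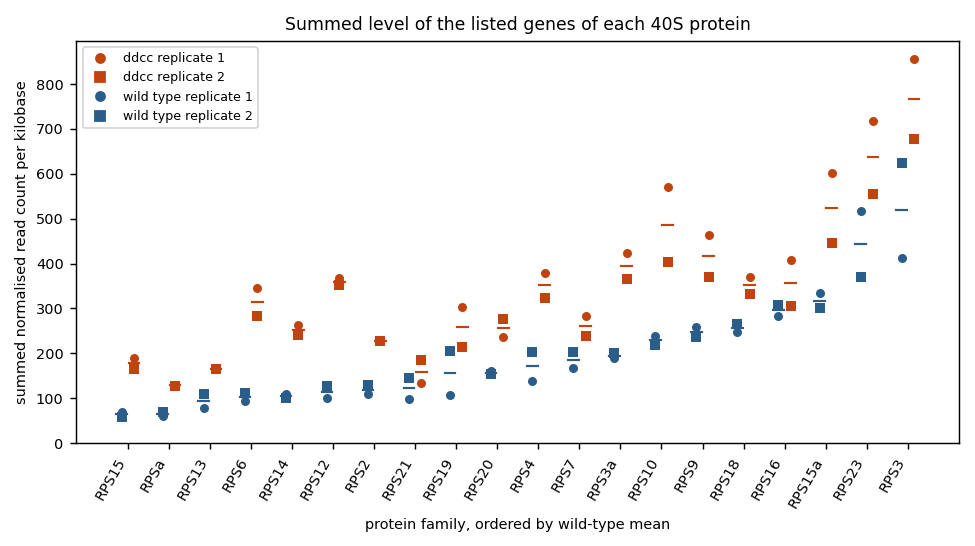
Summed normalised read count per kilobase of the listed genes of 20 of the proteins in the 4 libraries, with families ordered by their wild-type mean. Orange marks are ddcc, blue marks are wild type, circles are replicate 1, squares are replicate 2 and short bars are means of 2 libraries. Orange lies above blue in every family shown except RPS16 and RPS21, where the libraries overlap.

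A few paralogues had few or no counted reads. AT3G09680, the second RPS23 gene, had no read in any library, which allows up to 4.29e-05% of the 6997663 reads of all libraries. It was not tested. AT3G09680 overlaps AT3G09670 and shares a stretch of 98% identity with AT5G02960, the abundant RPS23 gene. Reads from that stretch could have been counted for AT5G02960 or left out, so the lack of counted reads does not show that AT3G09680 was silent. AT5G15520 of RPS19 had 9 reads in ddcc and 3 in wild type, a depth-corrected ratio of 4.73 with an exact 95% interval of 1.18 to 27.2 for counting error alone. It was not called in limma, where its log2 fold change was 1.33 (SE 0.63). RPSAb (AT3G04770) had 8 reads in each genotype, and no difference was detectable in it at this depth.

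The origin of reads is uncertain for many of these genes. A stretch of 100 bases of at least 95% identity elsewhere in the genome or transcripts was found for 26 of the 60, and 19 overlap another locus, which makes 36 with either. No source states that counting used the strand. Among the 22 called genes 11 have neither, among them AT4G31700 and EMB3010 of RPS6, AT4G25740, AT5G52650 and RPS10B of RPS10, AT1G15930 of RPS12 and AT3G11510 of RPS14. AT5G16130 of RPS7 has a copy in AT3G02560 and overlaps AT5G16140, AT5G15200 of RPS9 has a copy in AT4G12160, and AT1G48830 overlaps AT1G48820. The 24 tested genes with neither had a median log2 fold change of 0.90 with 11 called, and the 34 others one of 0.80 with 11 called. Over all genes tested, 3.03% were called higher, and this split was not tested.

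Other ribosomal protein genes gave similar counts. Among 34 further 40S genes, which include RPS24 to RPS30 and remaining paralogues, 28 were tested, 9 were called higher and 0 lower, with a median log2 fold change of 0.88. UBQ5, a ubiquitin and RPS27a fusion gene with the smallest p of this list, had 297 and 206 in ddcc against 76.6 and 89.4 in wild type (adjusted p = 0.00241). AT3G04920 of RPS24, the most abundant, had 345 and 348 in ddcc against 289 and 230.0 in wild type and was not called (adjusted p = 0.288). Of 110 tested genes of the 60S subunit 46 were called higher and 1 lower, with a median of 0.81, close to the 0.83 of the listed 40S genes. The shares called higher were 32.1% of the further 40S genes and 41.8% of the 60S genes, against 3.03% of all genes tested. The difference between these medians was not tested.

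Genes that build ribosomes did not move as a block. Of 23 assembly factor genes 3 were called higher (13%) and 1 lower (4.35%), with a median log2 fold change of 0.09. Over all genes tested, 3.03% were called higher and 3.45% lower. AT5G27120, a NOP58 gene of the complex that guides methylation of ribosomal RNA, rose to 282 and 288 in ddcc against 109 and 100.4 in wild type (log2 fold change 1.43 (SE 0.22), adjusted p = 0.00196). FIB2, for the methyltransferase fibrillarin of the same complex, had 44.9 and 45.9 in ddcc against 7.72 and 17.8 in wild type (adjusted p = 0.0134), and NAP57, for the pseudouridine synthase of ribosomal RNA, 1204 and 1192 in ddcc against 603 and 452 in wild type (adjusted p = 0.00678). The second genes of these pairs, FIB1 and AT3G05060 (NOP58), were not called, with log2 fold changes of -0.08 and -0.10, and both pairs were named after their values were seen. AT4G31420 (REIL1), a factor of late 60S maturation, fell to 76.1 and 39.3 in ddcc against 134 and 159 in wild type (adjusted p = 0.0131). NUC-L1, the abundant nucleolin gene, had 1813 and 1738 in ddcc against 1352 and 1086 in wild type and did not pass (adjusted p = 0.181).

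None of 9 genes of the TOR and S6 kinase pathway was called, with a median log2 fold change of -0.14 and values from -0.61 to 0.56. RAPTOR1, the most abundant of them and the one with the smallest p, encodes the TOR partner that binds substrates and had 243 and 290.0 in ddcc against 448 and 367 in wild type (adjusted p = 0.126). S6K2, a kinase of RPS6 also named after its value was seen, had 89.9 and 104 in ddcc against 135 and 114 in wild type (adjusted p = 0.431). These are transcript levels, and phosphorylation of RPS6 was not measured.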

How the data were processed

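RNA was amplified from total RNA of whole seeds and sequenced, per the labels' protocols. The authors deposited 1 signal value per gene and library, a read count after normalisation. The submitters' processing notes list Bowtie 0.12.7, edgeR 3.10.5 and build TAIR10. How reads were mapped and counted, and whether by strand, is not given in the sources used here. Within a genotype the values followed the equalisation of library sizes of the latter package. Inverting it at a dispersion of 0.0327 reproduced 100% of the value pairs with reads within a tolerance of 0.01, and the inferred reads served for depth, intervals at the 95% level and floors.

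Values were compared with limma 3.58.1 in R 4.3.3, on log2 values after adding 1 unit (1.56, the mean column total divided by 1e6). Genes averaging 1 unit or more were fitted, with a variance trend and Benjamini-Hochberg adjustment over all 15780. The fold change understates changes of low genes. The fit was tested on simulated data, and the inversion was checked on the deposited value pairs. The members and all gene lists were chosen with earlier results of these data known.

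Named by rule were the called genes, the 6 largest and 6 smallest fold changes, each family's most abundant gene, the 5 lowest genes, the RPSa, RPS6, RPS13 and RPS18 genes, and in each related list the genes with the highest mean and the smallest p. Other members were added to account for the list, and some genes under the rule are not reported here. Exon lengths, positions and promoters came from the RefSeq annotation of TAIR10.1, which keeps the nuclear sequences of TAIR10 and holds 26719 of the 27416 loci. Copies were searched with BLAST+ 2.17.0 as stretches of 100 aligned bases with at least 95% identity. Motifs were matched exactly with Python 3.11.15. The list of proteins per region of the subunit was made after the values were seen. Alternatives were other pseudocounts, filters and scalings, limma without a trend, with robust moderation or with a replicate block, voom on the inferred reads, and leaving out each library.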

Additional observations from a re-analysis of the deposited data

How the results depend on the processing

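With 2 libraries a genotype, calls rest on a spread shared over genes, and the p-values cover these 4 libraries alone. Against 22 genes called higher, 13 were called without a filter, which tests more genes, 41 at equal nuclear totals, 0 without the variance trend, and 0 to 11 with 1 library left out. Other alternatives (pseudocounts, filter at 5 units, TMM factors, quantile normalisation, robust moderation and voom on inferred reads) gave 22 to 28. Deviations of same-numbered libraries had a correlation of -0.05 over 2 pairs, too few to tell whether the numbers mark pairs. The replicate block gave 26. No setting called any of the 58 lower. The median of 0.83 became 0.70 with a pseudocount of 5 units, 1.22 with equal nuclear totals (0.84 above all genes), and 0.82 to 0.99 with 1 library left out. Over all genes, 478 higher and 545 lower calls became 191 and 145 without a filter, 1439 and 207 with equal nuclear totals, 32 and 1 without a trend, 256 and 161 without wild-type replicate 1, 141 and 206 without wild-type replicate 2, and 0 without either ddcc library. Of 672 comparisons of 45 named members with an alternative, 99 lost and 17 gained a call, and the 22 called genes kept their sign in each. The causes were not tested. Depth limits the genes with few reads, and intervals cover counting error only.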
